A study of Mus musculus with 2 samples.

Results

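The Treg identity genes described here are *Foxp3*, *Ikzf2*, *Il2ra*, *Il10*, *Tnfrsf4*, *Tnfrsf9*, *Tnfrsf18*, *Lrrc32*, *Ccr8*, and *Izumo1r*. They were taken by name, as 10 of the 22337 gene symbols in the expression matrix, and all 10 had transcripts in these cells. Their levels were followed across 14 annotated cell types and 2 groups of heart grafts. Cells came from Bm12 hearts transplanted into C57BL/6 (B6) recipients and taken on postoperative day (POD) 14. Bm12 mice carry an altered MHC class II molecule that B6 CD4+ T cells recognize, and both groups share this mismatch. The 3 hearts labelled BM12 WT (IL-33+, hearts 1 to 3) and the 3 labelled BM12 IL33 KO (IL-33-, hearts 4 to 6) differ by the *Il33* genotype of the graft, while the recipients of both groups were B6 mice. All mice were male and matched for age within the study, whose sources used here give no age in weeks. Each heart carried its own hashtag antibody, and the 6 hearts were run as 1 pooled library of 4441 cells.

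Tregs are CD4+ T cells that restrain other immune cells, and Foxp3 is the transcription factor that defines them. Foxp3 works with partners such as Helios (*Ikzf2*) and sustains a surface program that is rich in receptors for growth and costimulatory signals. IL-2, bound by a receptor that includes CD25 (*Il2ra*), signals through STAT5 and maintains Foxp3. Most of these genes also appear in activated conventional T cells or in innate lymphocytes, so no member other than *Foxp3* names a Treg on its own.

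The hearts gave between 230 and 1666 cells and between 908135 and 7012926 unique molecular identifiers (UMIs, each standing for 1 captured transcript). Cells held 1500 to 14977 UMIs, a range bounded by the study's own filter on counts per cell. Each cell barcode was listed once with 1 hashtag, as the pooled library requires, so this does not check how well the hearts were told apart. Transcripts of *Il33* did not separate the labels in fibroblasts: the level was 24.3, 0, and 50.7 CPM (a gene's UMIs scaled to a common depth per cell) in hearts 1 to 3 and 32.6, 73.8, and 16.1 CPM in hearts 4 to 6. Heart 2 held 6 fibroblasts and heart 5 held 4. The sources used here do not say which exons the deletion removes, so these 3′ counts check no label, and hearts are called IL-33+ and IL-33- by their labels throughout.

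In the mouse genome (GRCm38, GENCODE coordinates) *Foxp3* lies on chromosome X from 7573644 to 7595245, on the forward strand. *Tnfrsf4* (chromosome 4, 156013843 to 156016612) and *Tnfrsf18* (chromosome 4, 156026164 to 156028895) are 9551 bp apart on the same strand, and *Tnfrsf9* (150914562 to 150946102) lies on that chromosome as well. RefSeq promoter windows, the 250 bases before a transcript start, were given for 7 of the 10 genes, in 9 windows on GRCm38.p6. Because STAT5 acts downstream of the IL-2 receptor, the STAT motif TTCNNNGAA was searched on both strands, which read the same for this motif. It occurred in 3 of the 9 windows, those shown here with the match in capitals, and in 7.02% of all 32851 windows.
Foxp3, chrX:7580233-7580482, forward strand: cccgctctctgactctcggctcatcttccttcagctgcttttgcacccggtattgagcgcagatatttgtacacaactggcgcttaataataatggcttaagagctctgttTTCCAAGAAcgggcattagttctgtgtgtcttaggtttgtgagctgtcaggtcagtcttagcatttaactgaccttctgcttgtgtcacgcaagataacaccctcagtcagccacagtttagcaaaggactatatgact
Tnfrsf9, chr4:150927749-150927998, forward strand: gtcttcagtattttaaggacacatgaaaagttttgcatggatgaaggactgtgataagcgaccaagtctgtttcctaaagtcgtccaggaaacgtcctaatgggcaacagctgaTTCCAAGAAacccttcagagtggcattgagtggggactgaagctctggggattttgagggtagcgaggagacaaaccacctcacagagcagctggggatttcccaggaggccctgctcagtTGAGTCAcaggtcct
Tnfrsf18, chr4:156026072-156026321, forward strand: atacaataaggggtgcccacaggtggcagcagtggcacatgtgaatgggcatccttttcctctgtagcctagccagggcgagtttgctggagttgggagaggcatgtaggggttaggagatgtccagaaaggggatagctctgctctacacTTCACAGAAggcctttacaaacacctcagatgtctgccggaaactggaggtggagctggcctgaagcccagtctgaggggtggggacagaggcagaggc
The match begins 139 bases before the start in *Foxp3*, 136 in *Tnfrsf9*, and 99 in *Tnfrsf18*. The second stretch in capitals in the *Tnfrsf9* window is the AP-1 motif TGANTCA, found in 6.75% of all windows. The RefSeq starts used here are downstream of the first GENCODE start, so the *Foxp3* and *Tnfrsf9* windows lie inside the GENCODE spans of those genes, and the *Tnfrsf18* window reaches into its span, with the STAT match inside it. The forkhead motif TGTTTAC (3.17% of all windows) and the form of the NF-kB motif that was searched (1.21%) were in none of the 9 windows. That NF-kB form was a narrow one. Looser forms were not searched, so the windows, that of *Tnfrsf9* included, may hold NF-kB motifs of other forms. A match is a run of letters in these windows and was not tied to binding, which was not measured.

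The annotation named 263 cells Tregs. Their level in each heart is the mean CPM over the heart's Tregs, and values for a type are the mean ± SD over the 6 hearts. *Cd3e*, a chain of the T cell receptor complex, had a UMI in 66.5% of them, *Cd4* in 58.9%, and *Ctla4*, a checkpoint receptor abundant in Tregs, in 71.5%. *Foxp3* had a UMI in 51 of the 263 (19.4%, exact 95% confidence interval 14.8% to 24.7%), at a median depth of 2860 UMIs per cell. In B cells, which should lack *Foxp3*, it had none in 286 cells at a median of 2292 UMIs, which allows a share of cells with a UMI of up to 1.05% (3 cells of 286). Intervals and limits cover counting error only. Among T cells the 327 cells annotated Tem/eff (effector and effector memory) were sequenced more deeply, with a median of 5693 UMIs, so for shares of cells with a UMI the share that remains on average after thinning every cell to 1500 UMIs is given too. After thinning, a *Foxp3* UMI was expected in 13.1% of Tregs, 4.17% of Tem/eff cells, 3.47% of unconventional T cells, and at most 0.865% of any other type.

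Of the 10 genes, 7 had their highest mean level in Tregs, and Tem/eff cells came second for 6 of those 7. The annotation was made by clustering these same cells on their genes, so differences between types are a description and carry no test. *Foxp3* reached 131.7 ± 68.2 CPM in Tregs, 40.1 ± 24.97 CPM in Tem/eff cells, and 27.0 ± 34.8 CPM in unconventional T cells. Tregs exceeded Tem/eff cells in 5 of 6 hearts, although the ranges over hearts overlapped. *Foxp3* was not detected in B cells, monocyte-derived dendritic cells (Mo-DCs), monocytes, or conventional dendritic cells (cDCs).

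**Figure D1:**
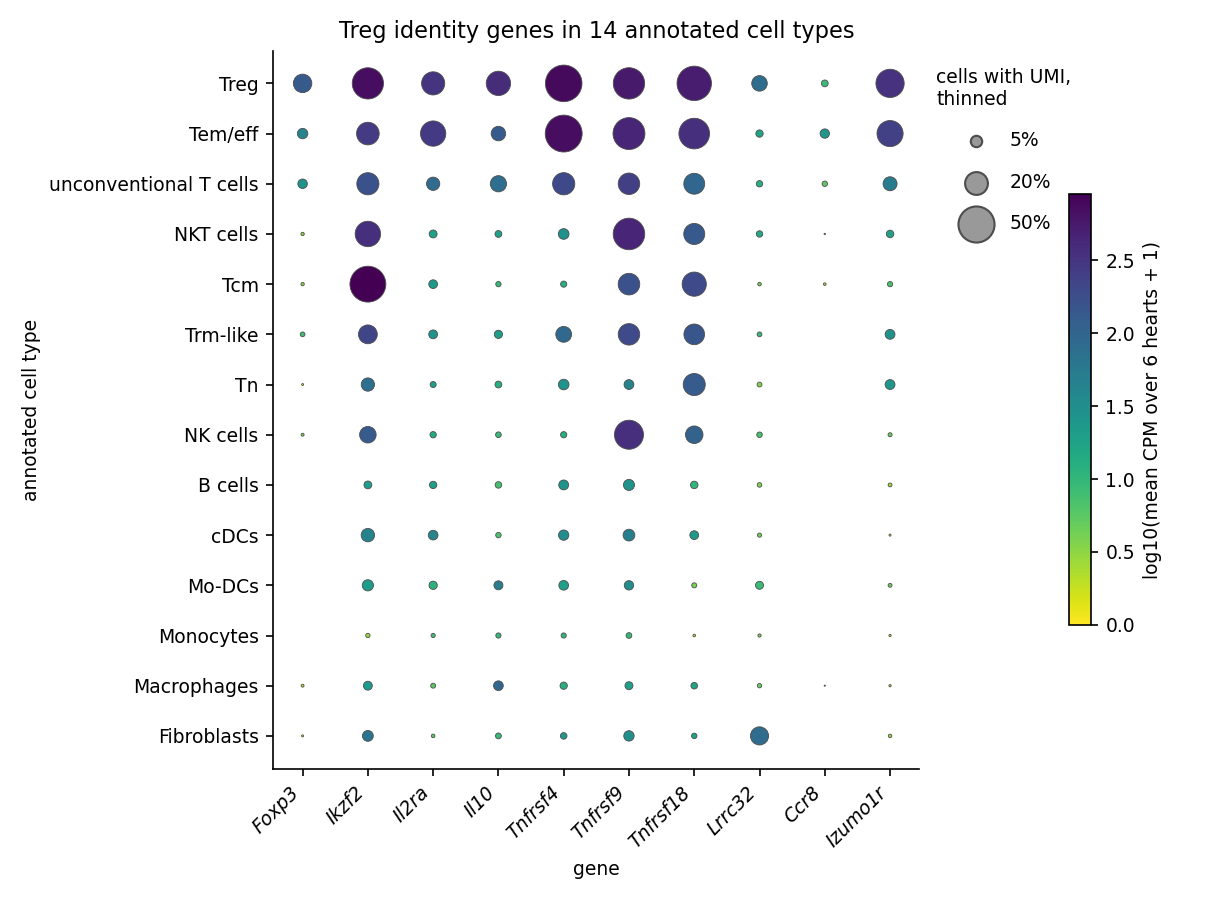
Levels of the 10 Treg identity genes (horizontal axis) in 14 annotated cell types (vertical axis). Color gives log10 of the mean CPM over 6 hearts plus 1, and dot area gives the share of cells with a UMI expected after thinning to 1500 UMIs. Tregs and Tem/eff cells hold the darkest rows, with *Ikzf2* also dark in Tcm and *Tnfrsf9* in NKT and NK cells.

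Helios departed from this order. *Ikzf2* was highest in cells annotated central memory T cells (Tcm), at 892.3 ± 225.1 CPM, ahead of Tregs (702.6 ± 220.3 CPM) in all 6 hearts and of NKT cells (343.1 ± 25.6 CPM). The ranges of Tcm and Tregs overlapped, while those of Tregs and NKT cells did not. Of the 266 Tcm, 173 had an *Ikzf2* UMI and *Cd4* had a UMI in 3.38% of all Tcm, against 58.9% of Tregs. The study places Tcm among the CD4+ helper subsets. Among the 173 Tcm with an *Ikzf2* UMI, 4 had a *Cd4* UMI, 24 a *Cd8a* UMI, and 2 a *Foxp3* UMI. *Ccr7*, a homing receptor of naive and central memory T cells, was found in 8.11% of these cells after thinning and in 24.1% of the 93 Tcm without an *Ikzf2* UMI. Of the other members, the Tcm with an *Ikzf2* UMI carried *Tnfrsf18* in 24.5% and *Tnfrsf9* in 20.3% of cells after thinning, but *Tnfrsf4* in 1.31% and *Izumo1r* in 1.63%.

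*Il2ra*, which encodes the CD25 chain of the IL-2 receptor, was similar in Tregs (314.1 ± 117.8 CPM) and Tem/eff cells (284.9 ± 39.1 CPM), with Tregs higher in 4 of 6 hearts. Both stood above the next type, unconventional T cells (81.3 ± 69.0 CPM), and the Tem/eff range did not overlap with that of unconventional T cells. Some of this signal came from annotated Tregs with transcripts of type 2 innate lymphoid cells (ILC2s). Among 7 ILC2 markers, 3 or more had a UMI in 16 Tregs, and in these *Il2ra* averaged 1171 CPM, against 219.1 CPM in the other 247. Only 1 of the 16 had a *Foxp3* UMI, 1 an *Il10* UMI, and 1 an *Izumo1r* UMI, and 8 had a UMI of *Cd3e*, *Cd3g*, or *Trac*. Without them the Treg level of *Il2ra* was 269.6 ± 122.5 CPM, and Tem/eff cells then had the higher mean.

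*Il10*, the suppressive cytokine of the set, was highest in Tregs in every heart when set against Tem/eff cells, with a Treg level of 385.2 ± 124.5 CPM against 133.8 ± 92.1 CPM. Macrophages followed, at 97.4 ± 104.1 CPM, a mean whose SD exceeds it. *Izumo1r*, which encodes folate receptor 4, stood at 341.6 ± 83.1 CPM in Tregs, ahead of Tem/eff cells at 241.0 ± 89.6 CPM, and the range of Tem/eff cells did not overlap with that of unconventional T cells (54.0 ± 34.0 CPM).

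The costimulatory receptors of the TNF receptor superfamily differed in how far they spread over cell types. *Tnfrsf4* (OX40) was nearly equal in Tregs (759.2 ± 141.2 CPM) and Tem/eff cells (711.2 ± 85.2 CPM), with each type the higher in 3 hearts, and unconventional T cells followed at 196.3 ± 79.7 CPM. *Tnfrsf18* (GITR) was at 517.8 ± 122.0 CPM in Tregs, 348.3 ± 56.1 CPM in Tem/eff cells, and 191.1 ± 84.6 CPM in Tcm. Of these 3 receptors *Tnfrsf9* (4-1BB) was the least selective. It reached 555.7 ± 180.9 CPM in Tregs, 444.6 ± 100.4 CPM in NKT cells, 440.8 ± 138.3 CPM in Tem/eff cells, and 361.2 ± 92.4 CPM in NK cells. After thinning, a *Tnfrsf9* UMI was expected in 37.7% of Tregs, 38.2% of NKT cells, 39.1% of Tem/eff cells, and 32.4% of NK cells. Their ranges over hearts overlapped.

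*Lrrc32* (GARP), which holds latent TGF-β on the cell surface, was shared by Tregs (78.9 ± 29.8 CPM) and cells annotated fibroblasts (82.6 ± 35.5 CPM), with each the higher in 3 hearts. Tem/eff cells followed at 15.7 ± 13.5 CPM, with a range that did not overlap with that of Tregs. The annotated fibroblasts were mixed. In 64 of the 375, at least 2 of the endothelial markers *Pecam1*, *Cdh5*, and *Kdr* had a UMI, and *Dcn*, a fibroblast proteoglycan, was found in 45.3% of them. *Lrrc32* averaged 206.8 CPM in these 64 cells and 94.8 CPM in the 228 without an endothelial marker, of which 97.8% had a *Dcn* UMI. The 83 fibroblasts with 1 endothelial marker were lowest, at 43.1 CPM, so the level did not follow the number of markers. *Ccr8*, a chemokine receptor, was the rarest member, with 67 UMIs in 57 cells. It was higher in Tem/eff cells (22.9 ± 16.4 CPM) than in Tregs (8.0 ± 8.2 CPM) in 5 of 6 hearts.

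Ligands and partners of these receptors were listed with the members. *Tnfsf4*, the ligand of OX40, was highest in Tem/eff cells (68.0 ± 15.5 CPM), *Tnfsf9*, the ligand of 4-1BB, in Mo-DCs (61.3 ± 59.6 CPM), and *Tnfsf18*, the ligand of GITR, had 3 UMIs in all. *Il2* had 34 UMIs in all and its highest level, 6.94 ± 9.33 CPM, in Trm-like cells (resident memory-like T cells). The chains that complete the IL-2 receptor were highest in NK cells, with *Il2rb* at 2726 ± 105.7 CPM and *Il2rg* at 286.1 ± 30.2 CPM. Both chains of the IL-10 receptor were highest in monocytes, with *Il10ra* at 126.5 ± 29.2 CPM and *Il10rb* at 244.4 ± 36.8 CPM. *Tgfb1*, the cargo of GARP, was highest in NK cells (1353 ± 170 CPM), while the integrin chains that release it, *Itgav* (580.1 ± 133.5 CPM) and *Itgb8* (36.9 ± 10.9 CPM), were highest in Tregs. Of the CCR8 ligands, *Ccl1* was highest in Tem/eff cells (32.1 ± 36.4 CPM) and *Ccl8* in Mo-DCs (616.5 ± 599.6 CPM), both with SDs as large as their means or nearly so. Among these ligands and partners *Ccl8* was the 1 gene that passed the test of IL-33+ against IL-33- grafts in the type of its highest level, a test described after its value was seen, and it passed in the opposite direction in unconventional T cells. In Mo-DCs it measured 888.4, 1442, and 283.3 CPM in IL-33+ hearts and 23.1, 0, and 1062 CPM in IL-33- hearts, which overlapped (log2 fold change 3.36 ± 0.63 SE, limma adjusted p = 0.000308, a call made for 0.0702% of genes in Mo-DCs). In unconventional T cells it measured 220.6, 0, and 20.8 CPM against 199.8, 1383, and 448.5 CPM (-3.63 ± 0.70 SE, adjusted p = 0.048, against 0.0272% of genes). Hearts 2 and 5 held 4 and 7 Mo-DCs, and with only hearts of 10 or more cells the Mo-DC value was 1.45 (adjusted p = 1.00). Without heart 2 it was 2.86 (adjusted p = 1.00), without heart 5 it was 1.95 (adjusted p = 0.28), and limma-voom on the UMIs made no call. In heart 5, 1 unconventional T cell held 105 of 111 *Ccl8* UMIs, and without possible doublets the value there was -1.30 (adjusted p = 0.99).

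Across the 14 types (log2 of the mean CPM over hearts plus 10), the genes whose pattern was most like that of *Foxp3* were *Cd40lg* (Pearson r = 0.96), *Podnl1* (0.95), *Ctla4* (0.94), *Neb* (0.94), and the member *Izumo1r* (0.94). Averaged over the 10 members, the most similar genes were *Ctla4* (0.81), *Tigit* (0.80), *Gm17745* (0.80), *Sdf4* (0.79), and *Cd40lg* (0.79). *Cd40lg* had 52 UMIs in all. The 14 points share libraries and depth, genes needed 50 UMIs, and these values are a description. Among members, *Tnfrsf4* and *Izumo1r* were most alike (r = 0.95), and *Tnfrsf18* and *Lrrc32* the least (r = 0.31).

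Cells with a *Foxp3* UMI carried more of the other members than did the remaining Tregs, although both subsets were sequenced to similar depth (median 2734 and 2873 UMIs). After thinning, *Ikzf2* was expected in 65.1% of the 51 Tregs with a *Foxp3* UMI and in 30.9% of the 212 without. The same shares were 47.6% and 16.7% for *Il10*, 62.9% and 31.7% for *Tnfrsf9*, and 69.3% and 47.1% for *Tnfrsf4*. For *Lrrc32* they were 24.4% and 5.62%. *Ccr8* was at 2.78% and 1.53%, but before thinning only 2 of the 51 and 8 of the 212 cells had a UMI of it. Of the 39 Tregs with an *Lrrc32* UMI, 35 also had an *Ikzf2* UMI and 19 a *Foxp3* UMI.

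*Foxp3* transcripts were also counted in cells not annotated as Tregs. In all, 123 cells had a *Foxp3* UMI: 51 were annotated Tregs, 29 Tem/eff cells, 12 unconventional T cells, 7 NKT cells, 6 Trm-like cells, 5 NK cells, 5 macrophages, 4 fibroblasts, 3 Tcm, and 1 a Tn cell. The unthinned share was 8.87% in Tem/eff cells and 14.5% in unconventional T cells. It was 2.02% in NKT and 1.66% in Trm-like cells, against 1.17% in macrophages and 1.07% in fibroblasts, which should lack the gene. Median depths of these 4 types were 5741, 2706, 6606, and 5790 UMIs. After thinning, the shares were 0.428% in NKT cells, 0.865% in Trm-like cells, 0.324% in macrophages, and 0.161% in fibroblasts. Whether the NKT and Trm-like shares exceed background was not tested. The 29 Tem/eff cells held 91 *Foxp3* UMIs and the 51 Tregs held 88. These totals are not scaled to depth, and the median depths were 7070 and 2734 UMIs. Within Tem/eff cells, *Ikzf2* averaged 1602 CPM in the 29 cells with a *Foxp3* UMI and 161.0 CPM in the 298 without. *Lrrc32* averaged 139.9 CPM and 4.55 CPM. *Tnfrsf4*, in contrast, was 704.1 CPM and 701.7 CPM, and *Ccr8* was lower in the cells with *Foxp3* (8.30 CPM against 25.2 CPM). The cells with a *Foxp3* UMI were the deeper ones (median 7070 against 5637 UMIs), and after thinning *Ikzf2* was expected in 75.8% and 14.2% of them, *Tnfrsf4* in 55.3% and 52.0%. These cells were chosen by a UMI of *Foxp3*, so the values are given with no test.

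**Figure D2:**
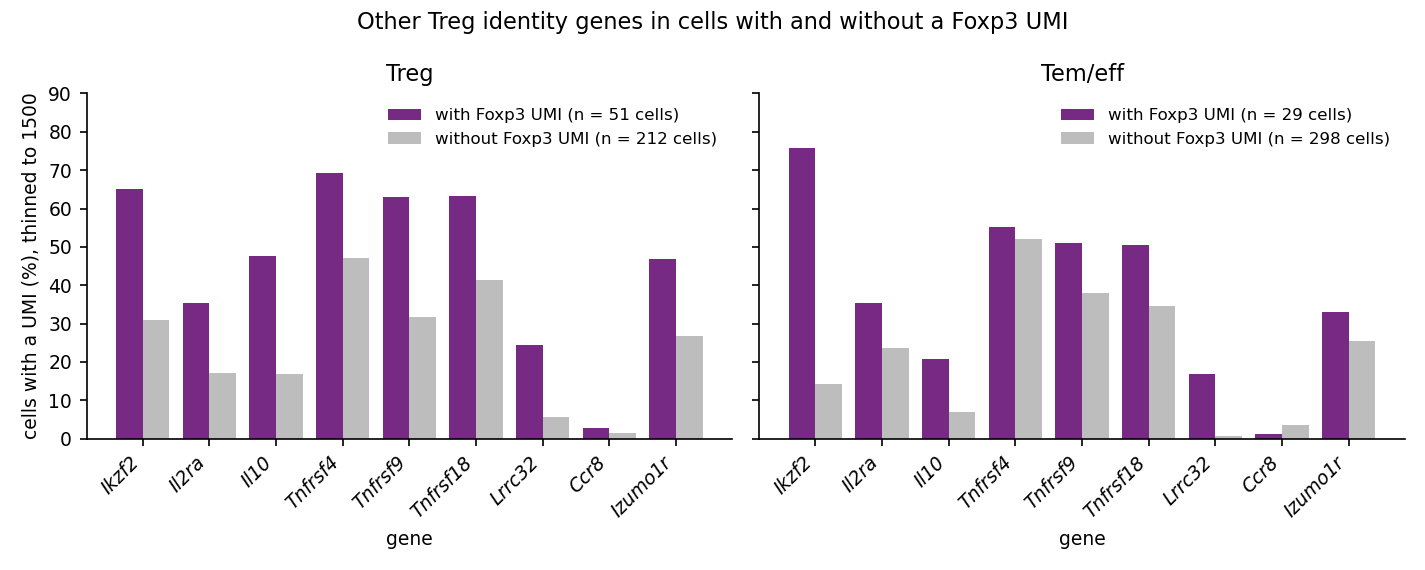
Share of cells (vertical axis, percent, expected after thinning to 1500 UMIs) with a UMI of each of the other 9 members, in Tregs (left) and Tem/eff cells (right), split by the presence of a *Foxp3* UMI. In Tem/eff cells the gap is wide for *Ikzf2* (75.8% against 14.2%) and *Lrrc32* (16.9% against 0.63%) and narrow for *Tnfrsf4* (55.3% against 52.0%).

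The next comparison asked whether IL-33 in the graft changed these genes. Fold changes are IL-33+ over IL-33- on the log2(mean CPM + 10) scale, which understates changes of low genes, and the hearts were the replicates (n = 3 per group). The labels do not say whether a heart is an independent experiment, so p-values measure the spread between these hearts. In bulk values per type, fewer positive cells and less RNA per cell cannot be told apart, and shares of cells are given where they differ. In Tregs all 10 members passed the filter on low counts, and none passed the test (limma, Benjamini-Hochberg adjusted p over all genes at 0.05), nor did any of the 7276 genes tested (0%). At an unadjusted p of 0.05 no member passed either, against 5.09% of all genes. The IL-33+ and IL-33- hearts overlapped for every member, while they did not for 10% of all genes. The fold change was below 0 for 7 of 10 members and for 51.9% of all genes, and its median was -0.25 over the members and -0.02 over all genes.

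*Foxp3* in Tregs measured 155.8, 110.4, and 68.9 CPM in IL-33+ hearts 1 to 3 and 254.8, 76.1, and 124.2 CPM in IL-33- hearts 4 to 6. Heart 4 stood highest and the other hearts interleaved (log2 fold change -0.32 ± 0.40 SE, 95% interval -1.14 to 0.50). *Ikzf2* measured 477.0, 622.2, and 642.3 CPM in IL-33+ hearts and 1037, 904.8, and 532.3 CPM in IL-33- hearts, so that heart 6 fell among the IL-33+ values (-0.46 ± 0.24 SE, limma adjusted p = 0.93). The share of Tregs with an *Ikzf2* UMI after thinning was 32.4%, 28.2%, and 31.9% in IL-33+ hearts and 50.7%, 46.0%, and 37.2% in IL-33- hearts. These shares did not overlap (exact permutation test, two-sided, p = 0.1, the smallest that 3 against 3 hearts allow), and the p adjusted over the 18 shares compared was 0.45. Shares of 10.4% of all genes tested in Tregs did not overlap either.

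*Il2ra* in Tregs measured 459.2, 299.7, and 236.0 CPM in IL-33+ hearts and 140.7, 326.3, and 422.5 CPM in IL-33- hearts, a full overlap. The 16 Tregs with ILC2 markers numbered 0, 4, and 7 in hearts 1 to 3 and 0, 1, and 4 in hearts 4 to 6. The summed level of the 7 ILC2 markers ranged from 727.3 to 1532 CPM in IL-33+ hearts and from 417.5 to 2118 CPM in IL-33- hearts. *Gata3*, a marker also listed below among other Treg genes, gave 625.4 of 727.3 CPM in heart 1 and 381.2 of 417.5 CPM in heart 4. Both hearts held 0 of the 16 cells, so the sum does not measure such cells alone. *Il10* measured 546.6, 221.5, and 475.8 CPM in IL-33+ hearts and 396.6, 259.9, and 410.7 CPM in IL-33- hearts. *Izumo1r* spanned 270.7 to 371.8 CPM and 277.8 to 493.2 CPM. None of these receptors or cytokines was ordered by group.

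*Tnfrsf4* in Tregs measured 832.0, 682.3, and 607.1 CPM in IL-33+ hearts and 1005, 739.2, and 690.1 CPM in IL-33- hearts. *Tnfrsf9* measured 394.6, 294.8, and 724.7 CPM in IL-33+ hearts and 712.3, 526.7, and 681.0 CPM in IL-33- hearts, with heart 3 the only IL-33+ heart within the IL-33- range or above it. *Tnfrsf18* measured 613.8, 401.5, and 334.5 CPM in IL-33+ hearts and 614.7, 532.3, and 610.1 CPM in IL-33- hearts, with heart 1 the exception. The fold changes of the 3 receptors were -0.19 ± 0.22, -0.52 ± 0.26, and -0.42 ± 0.24 SE, and the limma adjusted p-values were 0.98, 0.92, and 0.95. *Lrrc32* spanned 49.4 to 88.3 CPM and 57.5 to 129.9 CPM, and *Ccr8* was at 0 in 1 heart of each group and at most 22.0 CPM. The 95% interval was -1.16 to 1.82 for *Ccr8*, with 10 UMIs in all Tregs, and -1.27 to 0.49 for *Lrrc32*.

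**Figure D3:**
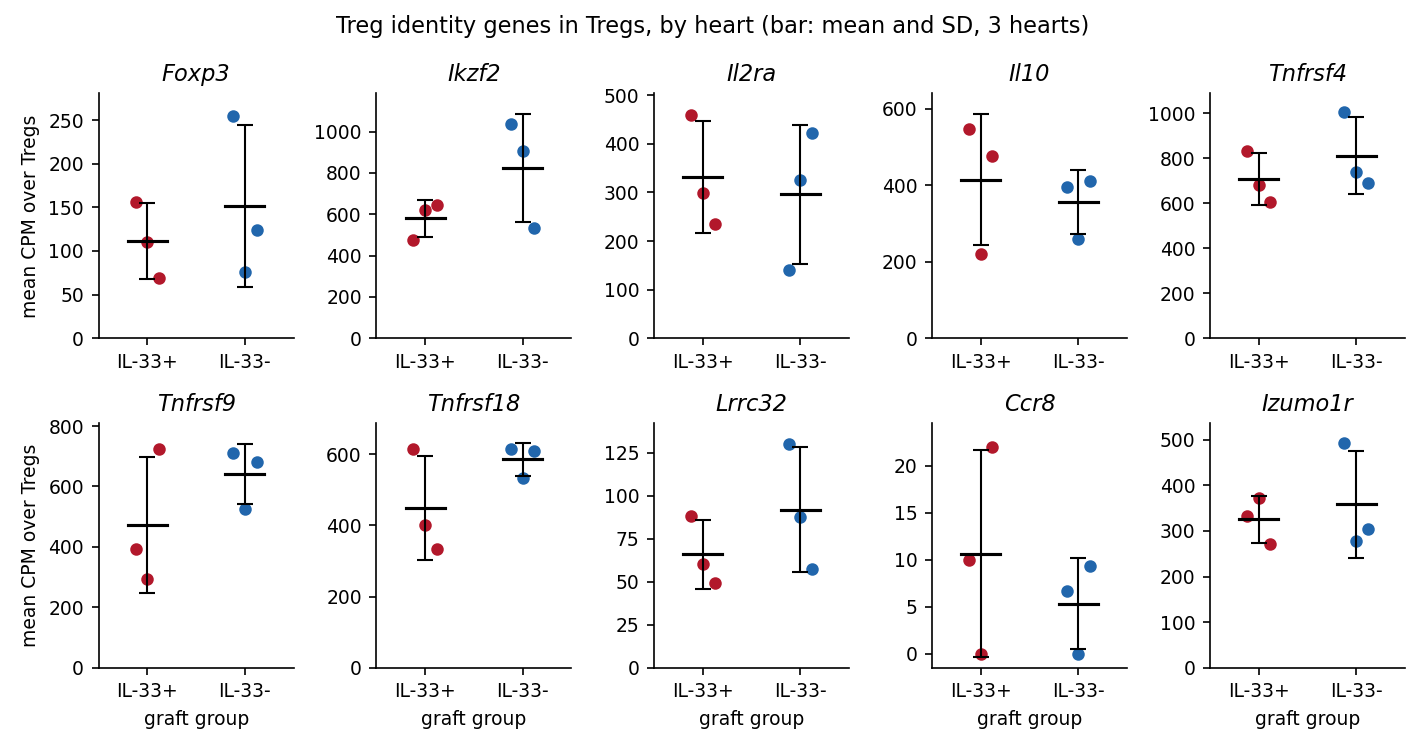
Mean CPM over Tregs (vertical axis) of the 10 members in each heart, for IL-33+ and IL-33- grafts (horizontal axis), with 1 point per heart and bars for the mean and SD of 3 hearts. Points of the groups overlap in all 10 panels, and for *Ikzf2*, *Tnfrsf9*, and *Tnfrsf18* 1 heart bridges the groups.

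The number of Tregs was compared as well. Cells annotated Tregs made up 3.12%, 10.9%, and 5.88% of the cells of IL-33+ hearts and 6.58%, 8.80%, and 5.90% of IL-33- hearts (difference -0.47 percentage points, exact permutation test, two-sided, p = 0.8). Over T cells (Tregs, Tem/eff, Tcm, Tn, and Trm-like cells) a *Foxp3* UMI was expected after thinning in 2.91%, 3.83%, and 2.82% of IL-33+ hearts' cells and in 5.33%, 4.27%, and 2.51% of those of IL-33- hearts (difference -0.85 percentage points, exact permutation p = 0.4). Without thinning the shares were 4.93%, 4.95%, and 4.51% against 9.06%, 7.93%, and 5.24%, which did not overlap (p = 0.1, exact, the smallest possible). The groups were therefore ordered by the unthinned share and not by the thinned share.

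Over all types, 91 of the 140 pairs of a member and a cell type passed the filter on low counts. No pair passed the test, against 0.00884% of all tested pairs of a gene and a type, and the lowest adjusted p was 0.24 (limma). Before adjustment, 8 pairs (8.79%) had p at or below 0.05, against 4.71% of all genes. Of the 8 pairs, 7 were lower in IL-33+ hearts (7.69% of the 91, against 2.29% of all). Groups did not overlap in 9 pairs (9.89%), against 9.82% of all. The fold change was above 0 in 39 pairs, against 50% of all. The 8 pairs fell in 6 cell types and included *Ikzf2* in 3 of them.

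*Ikzf2* in NK cells, innate lymphocytes that share the cytotoxic program of CD8+ T cells, measured 103.3, 48.6, and 80.2 CPM in IL-33+ hearts and 176.5, 256.0, and 113.0 CPM in IL-33- hearts. The groups did not overlap (log2 fold change -1.12 ± 0.27 SE, unadjusted p = 0.000375, limma adjusted p = 0.25). In NK cells 5.82% of all genes reached an unadjusted p of 0.05, 11.3% did not overlap between groups, and 0% passed the adjusted test. The UMIs were spread over many cells: 21 of 140, 6 of 53, and 57 of 475 NK cells had one in IL-33+ hearts and 28 of 105, 14 of 33, and 25 of 125 in IL-33- hearts. After thinning the shares were 9.27%, 6.65%, and 8.04% against 17.5%, 25.6%, and 12.9% (exact permutation p = 0.1, smallest possible), a separation seen in 11.5% of all genes tested in NK cells. Leaving out the cell richest in *Ikzf2* in each heart gave -1.11. A UMI of *Cd3e*, *Cd3g*, or *Trac* was present in 127 NK cells, from 13.2% to 15.7% of NK cells in IL-33+ hearts and from 10.4% to 17.1% in IL-33- hearts, and the fold change without these cells was -1.23 (adjusted p = 0.44).

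In Tem/eff cells *Ikzf2* measured 222.2, 102.3, and 219.9 CPM in IL-33+ hearts and 471.2, 358.4, and 275.0 CPM in IL-33- hearts, again without overlap (-1.03 ± 0.23 SE, unadjusted p = 0.000113, limma adjusted p = 0.53). The shares of Tem/eff cells with an *Ikzf2* UMI after thinning overlapped, at 19.5%, 8.76%, and 17.0% against 28.2%, 24.6%, and 14.9% (exact permutation p = 0.3). *Lrrc32* in the same cells measured 2.05, 0, and 13.7 CPM against 23.2, 35.8, and 19.6 CPM (-1.32 ± 0.40 SE, adjusted p = 1.00, 40 UMIs in all). *Izumo1r* measured 102.3, 208.2, and 282.8 CPM against 217.6, 371.6, and 263.6 CPM, with overlap (-0.58 ± 0.25 SE, adjusted p = 1.00). Its fold change was -0.19 without heart 1 and -0.37 without heart 5, where limma unadjusted p-values were 0.40 and 0.21. Of the 10 members tested in Tem/eff cells, these 3 reached an unadjusted p of 0.05, against 4.41% of all genes, and the first 2 did not overlap, against 9.23% of all genes. No gene passed the adjusted test in Tem/eff cells (0%). The cells with a *Foxp3* UMI made up 5.56%, 4.35%, and 5.81% of Tem/eff cells in IL-33+ hearts and 15.6%, 19.0%, and 3.45% in IL-33- hearts. Heart 6 had the lowest share of the 6 hearts, with 2 such cells. Without these 2 cells its *Ikzf2* level went from 275.0 to 144.4 CPM and its *Lrrc32* level from 19.6 to 4.53 CPM. What part such cells have in the group differences was not tested. Over the Tem/eff cells without a *Foxp3* UMI, *Ikzf2* measured 164.3, 47.2, and 148.2 CPM against 217.8, 197.1, and 144.4 CPM, so that the groups overlapped (-0.74 ± 0.31 SE, limma unadjusted p = 0.025, adjusted p = 1.00). *Lrrc32* was then at -0.33 ± 0.41 SE and *Izumo1r* at -0.37 ± 0.25 SE.

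*Ikzf2* reached an unadjusted p of 0.05 in naive T cells (Tn) too, where the hearts overlapped at low level, 0 to 78.3 CPM against 51.9 to 142.9 CPM (-1.43 ± 0.67 SE). Without heart 2, which had no *Ikzf2* UMI in 14 Tn cells, the fold change was -0.42 (limma unadjusted p = 0.43), and without the richest cell of each heart it was -0.89. In Tcm, where *Ikzf2* was highest, the fold change was -0.14 ± 0.18 SE, in NKT cells -0.01 ± 0.16 SE, and in Trm-like cells 0.04 ± 0.41 SE. Whether these types differed from NK or Tem/eff cells in their fold change was not tested. The difference was tested for Tregs against Tem/eff cells. None of the 10 members passed it, at an adjusted p of 0.05 or at an unadjusted one, against 0% and 5.04% of the 7219 genes tested. For *Ikzf2* the effect in Tregs minus that in Tem/eff cells was 0.57 ± 0.57 SE (limma adjusted p = 0.96).

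**Figure D4:**
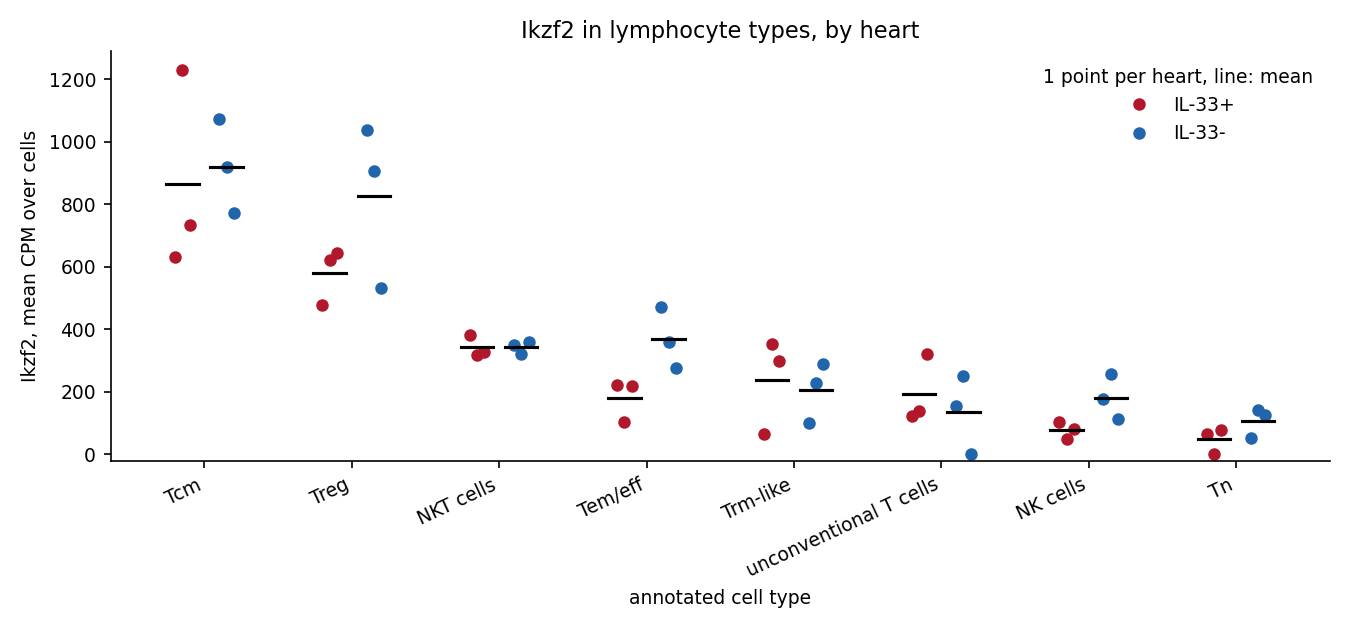
*Ikzf2* as mean CPM over cells (vertical axis) in 8 lymphocyte types (horizontal axis), with 1 point per heart and a line at the mean of 3 hearts, IL-33+ in red and IL-33- in blue. In Tem/eff and NK cells all IL-33- hearts lie above all IL-33+ hearts, whereas in NKT cells the groups coincide.

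*Il10* in macrophages had the lowest adjusted p of all pairs. It measured 18.7, 21.2, and 38.0 CPM in IL-33+ hearts and 61.2, 277.3, and 167.8 CPM in IL-33- hearts, without overlap (-2.13 ± 0.43 SE, unadjusted p = 7.5e-05, limma adjusted p = 0.24). Of the 9682 genes tested in macrophages, 869 did not overlap between groups, 391 reached an unadjusted p of 0.05, and 0 passed the adjusted test. For *Il10* the adjusted p was 0.0032 without heart 3 and 0.039 without heart 4. The values rested on single cells. In heart 5, 1 of 21 macrophages held all 41 *Il10* UMIs, in heart 6 a single cell held 22 of 26, and in heart 4 a single cell held 14 of 24. The richest macrophages of IL-33+ hearts held 5, 1, and 6 UMIs. The 3 richest cells had UMIs of 6 to 9 of the 9 macrophage markers and none of *Cd3e*, *Cd3g*, *Trac*, or *Foxp3*. The share of macrophages with an *Il10* UMI was 8.33%, 10.0%, and 16.3% in IL-33+ hearts and 8.45%, 4.76%, and 10.8% in IL-33- hearts. After thinning the shares were 2.49%, 3.18%, and 4.92% against 3.79%, 4.76%, and 5.21%, with overlap (exact permutation p = 0.3). With the richest cell of each heart left out the fold change was 0.06 (adjusted p = 1.00).

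**Figure D5:**
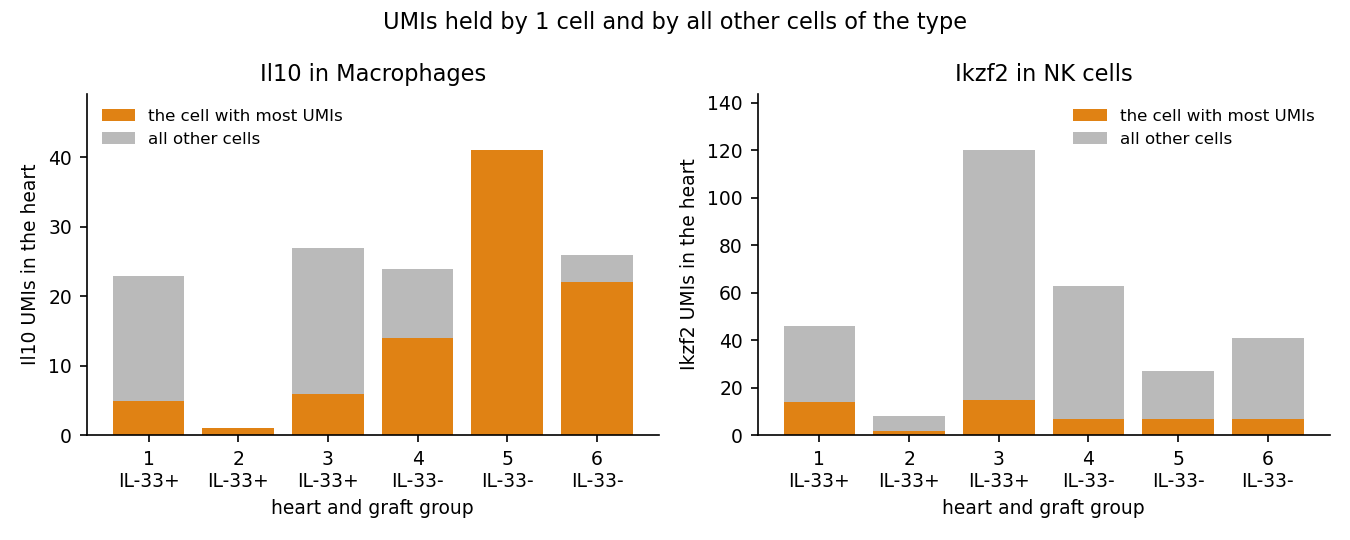
UMIs of *Il10* in macrophages (left) and of *Ikzf2* in NK cells (right) in each heart (vertical axis, UMIs summed over the cells of the type), divided into the cell with the most UMIs and all other cells. A single cell holds 41 of 41 *Il10* UMIs in heart 5 and 22 of 26 in heart 6, while for *Ikzf2* no cell holds more than 15 UMIs.

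The last pairs were small in counts. *Tnfrsf4* in annotated fibroblasts measured 0, 0, and 7.07 CPM in IL-33+ hearts and 38.4, 35.7, and 61.6 CPM in IL-33- hearts (-2.18 ± 0.76 SE, limma adjusted p = 1.00). It rested on 32 UMIs in 19 cells. Hearts 2 and 5 held 6 and 4 fibroblasts, and the fold change without the richest cell of each heart was -0.73. *Il2ra* in NKT cells was the 1 pair higher in IL-33+ hearts, at 7.24, 16.7, and 63.3 CPM against 5.39, 5.97, and 9.17 CPM (0.95 ± 0.46 SE, adjusted p = 0.92). Heart 3 set this value, with 20 of its 45 UMIs in 1 cell.

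The other genes of these pathways were also tested in Tregs, where none of the listed genes passed the adjusted test in either direction. The share of all genes at an unadjusted p of 0.05 in Tregs was the 5.09% given above. Of 12 genes of IL-2 and STAT5 signaling, 7 had a fold change above 0 and none reached an unadjusted p of 0.05, with a median of 0.03. *Prdm1*, which encodes Blimp-1, was at -0.64 ± 0.48 SE, *Socs1*, a feedback inhibitor, at 0.60 ± 0.46 SE, and *Stat5b* at 0.41 ± 0.33 SE. Of 13 genes of TNF receptor and NF-kB signaling, 11 had a fold change above 0, with a median of 0.28, and 3 reached an unadjusted p of 0.05. *Nfkbia*, the inhibitor induced by NF-kB, measured 1073, 1331, and 1280 CPM in IL-33+ hearts and 807.0, 835.4, and 666.8 CPM in IL-33- hearts (0.67 ± 0.20 SE, adjusted p = 0.62). *Rel*, an NF-kB subunit needed for Treg development, measured 307.5, 411.0, and 560.5 CPM against 213.1, 218.8, and 215.0 CPM (0.91 ± 0.28 SE, adjusted p = 0.71). *Nfkbiz* was at 0.92 ± 0.29 SE with overlap. Hearts of the groups did not overlap for *Nfkbia* and *Rel*, nor, as seen after their values were known, for *Traf1* (0.48 ± 0.29 SE) and *Traf5* (-0.25 ± 0.65 SE), against the 10% of all genes given above. The receptors themselves, *Tnfrsf4*, *Tnfrsf9*, and *Tnfrsf18*, had fold changes below 0.

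Among 28 tested genes of 29 listed as other Treg genes, 18 had a fold change above 0, with a median of 0.20, and 3 reached an unadjusted p of 0.05: *Areg* (1.65 ± 0.53 SE), *Cd83* (1.31 ± 0.48 SE), and *Nrp1* (0.97 ± 0.42 SE). Their adjusted p-values in limma were 0.74, 0.89, and 0.92. *Areg*, which encodes the growth factor amphiregulin, measured 81.1, 855.7, and 379.1 CPM in IL-33+ hearts and 36.6, 68.3, and 261.4 CPM in IL-33- hearts, with overlap. Without the 16 Tregs with ILC2 markers, counted by heart above, its fold change was 1.84 (adjusted p = 0.77). It was 2.54 without heart 1 (adjusted p = 0.014) and 0.92 without heart 2 (adjusted p = 1.00). Of 11 tested conventional T cell genes, 8 had a fold change above 0, with a median of 0.29, and *Ccr7* reached an unadjusted p of 0.05 (0.90 ± 0.41 SE), followed by *Il7r* (0.84 ± 0.43 SE) and *Lef1* (0.98 ± 0.66 SE). Of 10 tested ligands and partners, 7 had a fold change above 0 and none reached an unadjusted p of 0.05, the nearest being *Ccl1* (1.27 ± 0.72 SE), *Ccl8* (1.197 ± 0.69 SE), and *Tnfsf4* (0.98 ± 0.75 SE). The median over all genes tested in Tregs was -0.02.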

How the data were processed

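Reads of the pooled gene expression library were processed by the authors with Cell Ranger on mm10 and with Partek Flow (10.0.23.0425, per the labels), and the authors deposited log2(CPM + 1) per gene and cell, with each cell's type and hashtag. How hashtags were assigned is not given in the sources used here. Each cell's most frequent value above 0 was taken as 1 UMI, which gave its UMI counts back (99.9% of low values within 0.05 of a whole number). Of all symbols, 22 hold means, none a member. For each heart and type, mean CPM over cells plus 10 was put on the log2 scale and compared with limma 3.58.1 (lmFit, eBayes with trend; R 4.3.3) for genes with at least 10 UMIs and a UMI in at least 3 hearts, Benjamini-Hochberg adjusted within a type at 0.05. The fit was tested on simulated data. Single values were compared by exact permutation (two-sided), with 10 possible divisions of the 6 hearts. Thinned shares are expected shares at 1500 UMIs per cell. The authors had kept only cells within limits on counts (at least 1500), detected genes, and mitochondrial counts. No further cells were removed here, and possible doublets were left out in an alternative. Named outside Tregs are members with an unadjusted p of 0.05 or less and the types of highest level; of other lists, the 3 genes of lowest p. Members, lists and tests were chosen with earlier results of these data known. Python 3.11.15, numpy 2.4.6, scipy 1.17.1, pandas 2.3.3 and matplotlib 3.10.9 were used, with RefSeq promoter windows and GENCODE vM21 gene spans. Alternatives changed the pseudocount, filter, summing, limma method, centring, doublets, ILC2 marker cells, and hearts.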

Additional observations from a re-analysis of the deposited data

How the results depend on the processing

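No member was called in Tregs under any alternative run, and none differed between Tregs and Tem/eff cells. Over all cell types the count of called pairs was 0, except for 1 without heart 3 and 1 without heart 4 (*Il10* in macrophages, adjusted p = 0.0032 and 0.039 in limma), so the count ranged from 0 to 1 with 1 heart left out. The number of members highest in Tregs ranged from 6 to 8 with 1 heart left out and was 6 without the cells with ILC2 markers. The difference in the share of cells annotated Tregs turned to 4.37 percentage points when taken of T cells, and ranged from -2.59 to 1.28 with 1 heart left out. The median fold change of the members in Tregs stayed below 0, from -0.38 to -0.09, the latter without heart 3. Of the 18 named pairs, 13 kept their direction under all alternatives run, and 10 of 279 values reversed. With 1 heart left out, *Foxp3* in Tregs ranged from -0.70 to 0.11, *Il2ra* from -0.21 to 0.55, *Il10* from -0.10 to 0.54, and *Izumo1r* from -0.26 to 0.15, while *Tnfrsf4* ranged from -0.31 to -0.03, *Tnfrsf9* from -0.88 to -0.24, *Tnfrsf18* from -0.66 to -0.23, *Ikzf2* from -0.74 to -0.27, *Lrrc32* from -0.65 to -0.13, and *Ccr8*, which passed the count filter only without heart 2 or heart 5, from 0.05 to 0.77, all 6 keeping their direction. *Izumo1r* in Tregs was 0.052 without possible doublets. Leaving out the richest cell of each heart, a setting chosen after seeing the data, gave 0.0078 for *Izumo1r* in Tregs and 0.057 for *Il10* in macrophages, where single cells held most UMIs. The settings without Tem/eff cells with a *Foxp3* UMI and without NK cells with a T cell marker UMI were also chosen after seeing the data. With 1 heart left out, *Il2ra* in NKT cells ranged from 0.35 to 1.40 and *Izumo1r* in Tem/eff cells from -0.88 to -0.19. The causes of the other changes were not tested. No paired analysis was possible because the labels number the hearts 1 to 6 and the groups share no number. Precision was limited by 25 to 98 Tregs per heart and by 88 *Foxp3* UMIs in all Tregs.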
